A study of Parasteatoda tepidariorum with 2 samples.

Results

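Nuclei of the nascent germ band were compared with nuclei of the germ disc in embryos of the common house spider *Parasteatoda tepidariorum*. All 6239 barcodes of the filtered stage-7 nucleus matrix were set against all 4820 barcodes of the filtered late stage-5 nucleus matrix, which together made up 11059 of the 11924 filtered barcodes of the series, the other 865 being whole cells of stage 7. The stage-7_nucleus library came from 20 whole embryos of the early germ-band stage. The late stage-5_nucleus library came from whole embryos of the late germ-disc stage, had been made for an earlier study and was filtered again by the authors for this series. The methods describe eggs of a single egg sac for each experiment, and the labels name no treatment, allele or transgene in either group. There was 1 library per stage, so no difference was tested across replicates, and stage, egg sac, library, sequencing and the limits of the filter cannot be told apart.

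At late stage 5, the spider germ disc is a nearly radially symmetric sheet, in which the rim will form anterior structures and the center will form posterior ones. Hedgehog signals from the rim, while a group of mesenchymal cells that leave the center, the cumulus, carries the BMP signal that breaks radial symmetry. By stage 7, the disc has opened into a germ band with a head, a thorax and an opisthosoma, and segmentation genes form stripes along its anterior-posterior axis. Posterior stripes depend on Delta-Notch signaling and Wnt8, head stripes on repeated splitting of expression domains, and Hox genes mark territories along the axis. RNA in nuclei includes many unspliced transcripts, and the authors counted exonic and intronic reads for both nucleus libraries.

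The matrices held counts of RNA molecules per gene and barcode. The stage-7 nuclei held 68754756 molecules, with a median of 10452 molecules (range 4442 to 19993) and 3473 genes per nucleus. Late stage-5 nuclei held 26804290 molecules, with a median of 5413 (range 2382 to 13529) and 2566.5 genes per nucleus. The upper limit of the filter cut into the distribution at stage 7, where 2182 of 8421 barcodes were removed and 65.4% of the molecules kept, while the filtered late stage-5 matrix held 4820 of the 5145 barcodes deposited before the filter (97.1% of their molecules). The methods give another number of removed nuclei for late stage 5, so the deposited matrix may not hold every barcode that its filter started from. Thinned at random to 2000 molecules, which left out 0 nuclei, a nucleus had a median of 1252 genes at stage 7 and 1339 at late stage 5. The libraries shared 33 barcode numbers, 0.529% of those of stage 7 and 0.685% of those of late stage 5.

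**Figure D1:**
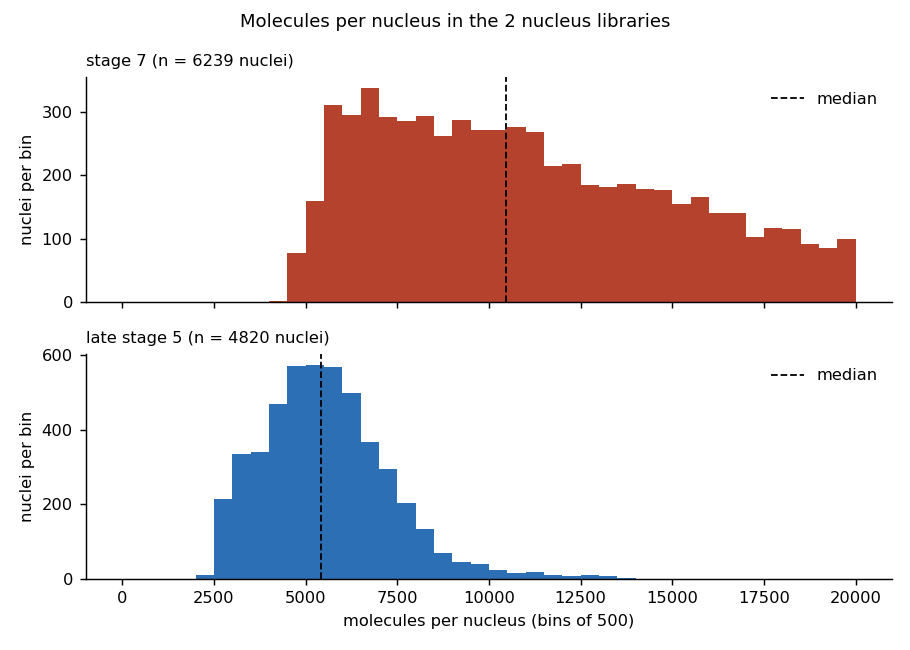
Molecules per nucleus (horizontal axis, bins of 500) against the number of nuclei per bin (vertical axis), for 6239 stage-7 nuclei in the upper panel and 4820 late stage-5 nuclei in the lower panel, with dashed lines at the medians of 10452 and 5413. The stage-7 distribution ends abruptly just below 20000 molecules, at the limit of the filter, while the late stage-5 distribution tails off below 15000.

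Levels are given as molecules of a gene per 10000 molecules of the library, with 95% exact Poisson intervals, and a ratio is the stage-7 level over the late stage-5 level, with a 95% exact interval conditional on the summed count. Percentages of nuclei with a molecule carry 95% exact binomial intervals and are given after thinning unless stated. All intervals cover counting error only. A gene was called higher or lower when its ratio was at least 2 or at most 0.5. Because the levels are sums over a library, fewer nuclei of a type and less RNA per nucleus cannot be told apart in them.

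Both filtered matrices held 18571 genes, of which 12996 had at least 100 molecules over the 2 libraries and were compared. Across these genes, log2 levels at the 2 stages had a Pearson correlation of 0.903, a description over genes, which are not independent replicates. Most genes took a smaller part of the library at stage 7. The median ratio was 0.656 (log2 -0.61), and the 5th and 95th percentiles were 0.288 and 3.01. Scaled to all molecules, 1296 genes (9.97%) were called higher and 3955 (30.4%) lower. When scaled so that the median gene had a ratio of 1, the split turned round, with 2447 genes (18.8%) higher and 985 (7.58%) lower. The share of called genes that were higher was thus 24.7% with the first scaling and 71.3% with the other, and 1296 genes were higher and 985 lower in both. The other scaling divides every ratio by 0.656, so no higher call can be lost and no lower call gained by it. Ratios below are scaled to all molecules, and calls that were lost relative to the median gene are named as such.

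The 100 most abundant genes of each library held 22.9% of molecules at stage 7 and 14.5% at late stage 5. The 1296 genes called higher held 35.7% of the molecules at stage 7 and 9.81% at late stage 5. The 3955 genes called lower held 11.3% at stage 7 and 28.7% at late stage 5. The direction of these sums is fixed by the calls and is given as a description. In the stage-7 whole cells, whose introns were not counted, the genes called higher held 52.3% of molecules and those called lower 4.27%, so the stage-7 nuclei lay between the late stage-5 nuclei and the whole cells in both sums. The part of cytoplasmic RNA in the nucleus libraries was not tested.

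**Figure D2:**
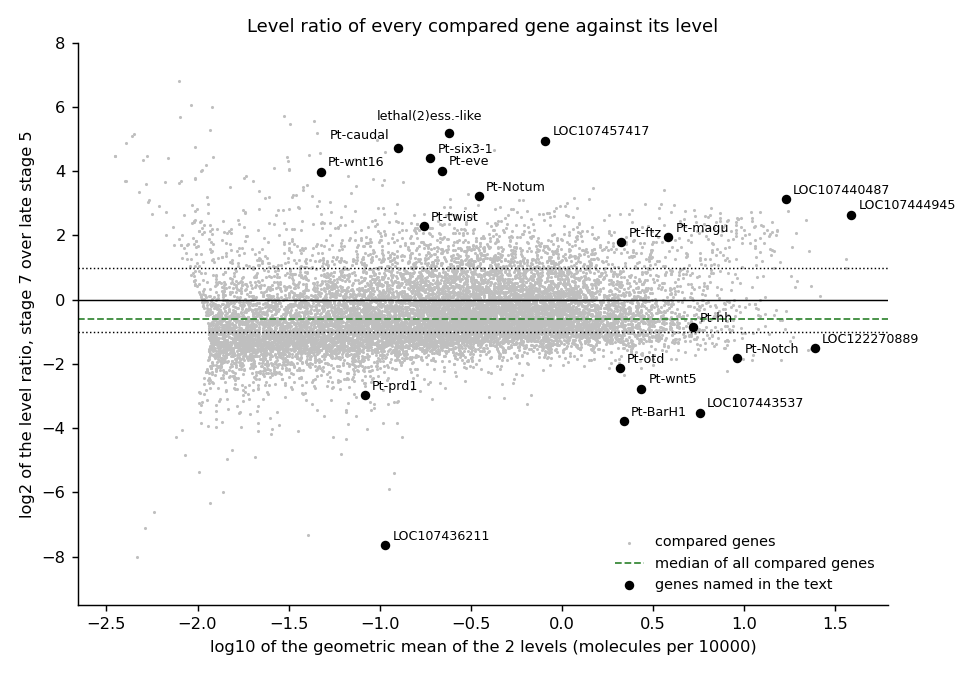
The log2 ratio of the stage-7 level over the late stage-5 level (vertical axis) against the log10 geometric mean of both levels in molecules per 10000 (horizontal axis) for 12996 compared genes (grey), with genes named in the text in black. Dotted lines mark ratios of 2 and 0.5, and the dashed line marks the median log2 ratio of -0.61. The most abundant genes reach high ratios, whereas the bulk of genes lies below 0.

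Classes of RNA differed in how often they were called. Of 462 long noncoding RNAs, 264 (57.1%) were called lower and 52 higher, with a median ratio of 0.463. Of 10935 protein-coding genes, 2854 (26.1%) were lower and 1147 higher, with a median ratio of 0.694. Over all compared genes, 30.4% were lower and 9.97% higher, and of 1503 genes without a RefSeq entry 789 (52.5%) were lower. Lower calls were rarer among abundant genes (1746 of 8313 with at least 1000 molecules), and the classes were not matched for level. Relative to the median gene, 93 long noncoding RNAs were lower and 78 higher, and 633 protein-coding genes were lower and 2202 higher. All 10 small nucleolar RNAs were lower (median 0.252), of which 6 stayed lower relative to the median gene. The long noncoding RNAs *LOC122270889* and *LOC122270800* had the largest falls in level of any compared gene. *LOC122270889* stood at 14.4 molecules per 10000 at stage 7 and 41.1 at late stage 5 (ratio 0.350, 0.347 to 0.354). *LOC122270800* stood at 13.6 at stage 7 and 39.9 at late stage 5 (ratio 0.341, 0.338 to 0.344). Both calls were lost relative to the median gene. The whole-cell levels were 5.05 for *LOC122270889* and 2.73 for *LOC122270800*.

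In 6 lists of genes that every cell uses, more members were called higher than lower at stage 7, unlike in the cyclin list described below. These lists were made from product names in the study's supplementary tables, which hold genes that the study chose on these samples and cover only part of each family, so their direction is not independent evidence. Over all compared genes, 9.97% were called higher and 30.4% lower, and the shares among only the genes with a product name were not computed. Of 15 genes of the mitochondrial respiratory chain, 14 were called higher and 0 lower, with a median ratio of 4.22. Of 21 proteasome genes, 19 were higher and 0 lower (median 2.91). The remaining lists of the 6 went the same way, with 7 of 9 histone genes (median 3.82), 9 of 11 mitochondrial ribosomal protein genes (2.46), 4 of 5 cytosolic ribosomal protein genes (2.33) and 3 of 4 tubulin genes (2.43) higher and 0 lower in each. Every one of these 6 lists also had a higher summed level in stage-7 whole cells than in either nucleus library.

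*LOC107452829* encodes subunit 4 of cytochrome c oxidase, the terminal enzyme of the respiratory chain, and had 3.0 molecules per 10000 at stage 7 and 0.375 at late stage 5 (ratio 7.99, 7.50 to 8.52). The subunit 5B gene *LOC107449999* had 2.85 at stage 7 and 0.376 at late stage 5 (ratio 7.56, 7.10 to 8.07). Among the histones, which package DNA, *LOC107443685* (histone H4) stood at 3.28 at stage 7 and 0.450 at late stage 5 (ratio 7.29, 6.88 to 7.73). The centromeric histone gene *LOC107439669*, a marker of chromosome attachment sites, was not called, with 3.45 at stage 7 and 5.25 at late stage 5 (ratio 0.657, 0.643 to 0.671). Its ratio lay below 1 but at the median of all compared genes (0.656). Tubulins form the microtubules of the spindle and cytoskeleton. The beta-tubulin gene *LOC107452384* had 8.92 at stage 7 and 3.65 at late stage 5, a ratio of 2.44 (2.39 to 2.5).

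As a measure of how unevenly molecules were spread over nuclei, the variance of thinned counts beyond counting noise was divided by the squared mean. Among genes with at least 1 molecule per 10000 at stage 7, its median was 0.179 for 470 genes called higher, 0.618 for 283 genes called lower and 0.316 for 1334 genes called neither. For *LOC107452829* it was 0.132 at stage 7, where 43.7% of nuclei had a molecule, against an excess variance of 0.754 and 7.30% of nuclei at late stage 5.

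**Figure D3:**
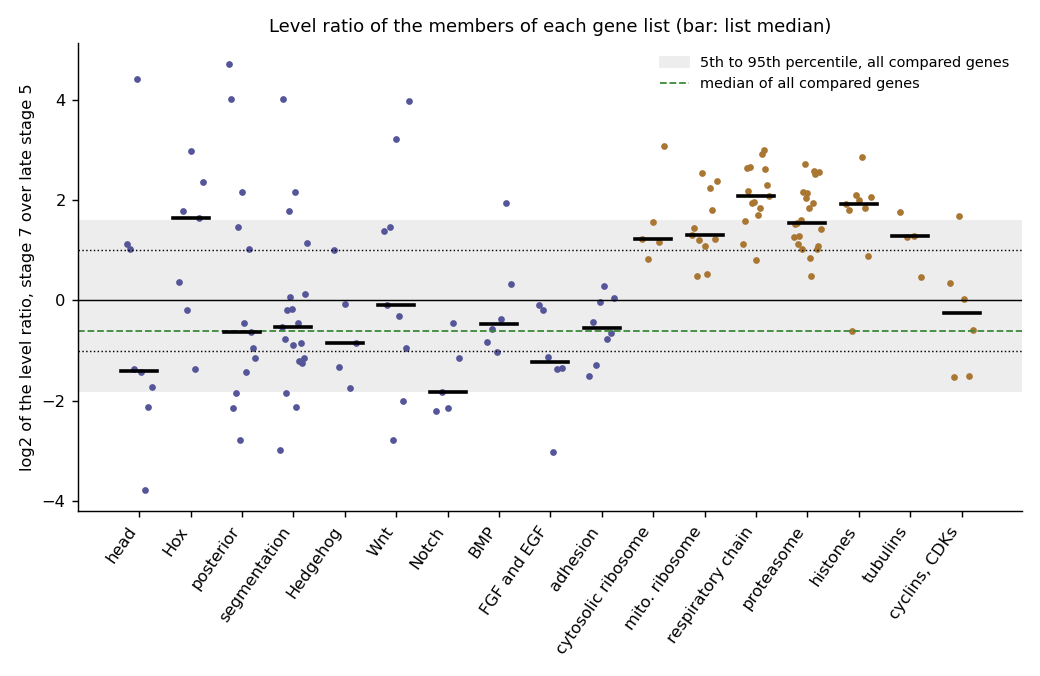
The log2 ratio of each gene of the named lists (points, stage 7 over late stage 5), with black bars at list medians, a grey band from the 5th to the 95th percentile of all 12996 compared genes and a dashed line at their median of -0.61. Lists of genes that every cell uses (brown, right) center above 1 apart from cyclins and their kinases. Most developmental lists (blue, left) spread on both sides of 0, but all members of the Notch list and of the FGF and EGF list lie below 0. By the median, Notch is the lowest developmental list and Hox the highest.

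Of 6 cyclins and their kinases, 1 was called higher and 2 lower, with a median ratio of 0.845, and 0 were lower relative to the median gene. At this size the counts cannot be set apart from the 9.97% higher and 30.4% lower over all compared genes. *LOC107439009*, which encodes cyclin-L1, had 3.28 at stage 7 and 9.48 at late stage 5 (ratio 0.346, 0.340 to 0.352), a call lost relative to the median gene, and *Pt-cyclinD-1*, a regulator of entry into S phase, had 2.75 at stage 7 and 4.14 at late stage 5 (ratio 0.665, 0.649 to 0.680).

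The genes with the largest rises in level were abundant, which a ranking by difference in level favors, and nearly ubiquitous at stage 7. Genes with the largest falls were likewise abundant and widespread in the disc. *LOC107437457*, for example, had 38.7 molecules per 10000 at late stage 5, in 99.2% of nuclei. *LOC107444945* stood at 96.4 molecules per 10000 at stage 7 and 15.4 at late stage 5 (ratio 6.26, 6.20 to 6.32), and at 134 in whole cells. *LOC107440487* stood at 49.9 at stage 7 and 5.74 at late stage 5 (ratio 8.68, 8.55 to 8.83), with a molecule in 99.7% of stage-7 nuclei against 62.7% of late stage-5 nuclei. No product name was at hand for these 2 genes. *LOC107441824*, named as an HMG-I/HMG-Y protein, a class that binds AT-rich DNA in chromatin, had 32.9 at stage 7 and 6.18 at late stage 5 (ratio 5.32, 5.23 to 5.40). All 8 genes with the largest rises were at a higher level in whole cells than in the stage-7 nuclei. Of the 8 with the largest falls, 7 were at a lower level in whole cells than in the stage-7 nuclei, the exception being *LOC107443537* with 1.81 in whole cells and 1.69 in stage-7 nuclei.

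Among the 2902 genes with at least 1 molecule per 10000 at either stage, 470 were called higher and 646 lower. *LOC107436795*, annotated as lethal(2)essential for life-like, a small heat shock protein family, had the highest ratio, with 1.45 at stage 7 and 0.0395 at late stage 5 (ratio 36.6, 30.3 to 44.8). A second stress gene, *LOC107453144* (major heat shock 70 kDa protein Ab), had 0.538 at stage 7 and 0.0172 at late stage 5 (ratio 31.3, 23.4 to 42.9), but *LOC107438136* (heat shock 70 kDa protein 4) had 8.20 at stage 7 and 4.93 at late stage 5 (ratio 1.66, 1.63 to 1.69). Of the 3 listed heat shock protein genes, 1 was called higher and 0 lower, with ratios from 0.608 to 31.3. The list is too small to set beside the shares of all compared genes. The long noncoding RNA *LOC107457417* followed with 4.48 at stage 7 and 0.146 at late stage 5 (ratio 30.7, 27.8 to 34.0), in 54.8% of stage-7 nuclei against 2.97% of late stage-5 nuclei. *LOC107451660*, annotated as a vitamin K-dependent protein C, was more restricted. It had 4.16 at stage 7 and 0.479 at late stage 5 (ratio 8.69, 8.22 to 9.20) with an excess variance of 2.86 at stage 7 and 23.2 at late stage 5.

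At the other end of the ranking, *LOC107436211*, which encodes a protein with KN motif and ankyrin repeats, was nearly absent at stage 7, with 52 molecules in the whole library against 4069 at late stage 5 (0.00756 per 10000 at stage 7 and 1.52 at late stage 5, ratio 0.00498, 0.00371 to 0.00655). Its molecules were found in 0.176% of stage-7 nuclei and 22.7% of late stage-5 nuclei. *LOC107443537* fell furthest by share of nuclei, being found in 26.3% (25.2 to 27.4) at stage 7 and 86.4% (85.4 to 87.3) at late stage 5, with levels of 1.69 at stage 7 and 19.3 at late stage 5. The list also held *LOC107445483*, annotated as trapped in endoderm-1, a receptor needed for cell migration in *Drosophila* (ratio 0.119, 0.111 to 0.127), and *LOC107449498*, annotated as the serine proteinase stubble (0.195, 0.185 to 0.207). The 12 lowest ratios also included those of *Pt-BarH1*, *Pt-wnt5* and the ETS factor gene *Pt-ets21c*. *Pt-ets21c* had 0.139 at stage 7 and 1.13 at late stage 5 (ratio 0.123, 0.114 to 0.132).

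Counts for the developmental lists stand beside 9.97% higher, 30.4% lower and a median ratio of 0.656 over all compared genes, or 18.8% higher and 7.58% lower relative to the median gene. With so few members per list, the counts describe the members and set no list apart from other genes. Of 8 head genes, 3 were called higher and 5 lower, with a median ratio of 0.379. Relative to the median gene, 3 were higher and 3 lower. *Pt-BarH1*, a BarH-type homeobox gene, had 0.588 molecules per 10000 at stage 7 and 8.08 at late stage 5 (ratio 0.0728, 0.0704 to 0.0753), in 6.88% of stage-7 nuclei against 37.7% of late stage-5 nuclei. *Pt-otd*, the spider *orthodenticle*, marks the periphery of the disc and later the head. It had 0.987 at stage 7 and 4.33 at late stage 5 (ratio 0.228, 0.221 to 0.235), in 11.7% of stage-7 nuclei against 23.9% of late stage-5 nuclei. Its paralog *Pt-otx2* followed it at lower counts, with 0.141 at stage 7 and 0.465 at late stage 5 (ratio 0.303, 0.278 to 0.329).

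*Pt-six3-1* marks the anterior end of the germ band, and it ran against *Pt-otd* and *Pt-BarH1*. It had 0.873 at stage 7 and 0.0410 at late stage 5, a ratio of 21.3 (17.6 to 25.9), and was found in 6.27% of stage-7 nuclei against 0.602% of late stage-5 nuclei. *Pt-gsc* (*goosecoid*) had 0.274 at stage 7 and 0.134 at late stage 5 (ratio 2.04, 1.82 to 2.29). *Pt-pax6*, an eye and brain regulator, had 0.0582 at stage 7 and 0.0265 at late stage 5 (ratio 2.20, 1.70 to 2.87), and the intervals of both ratios reach below 2. The gap gene homolog *Pt-tll* (ratio 0.386) and *Pt-gbx* (0.371) were called lower, and both calls were lost relative to the median gene.

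Hox genes assign identity along the body axis, and more of the listed ones were called higher than lower in the germ band. Of 8 listed Hox genes, 7 were in both filtered matrices, of which 4 were called higher and 1 lower, with a median ratio of 3.13. Relative to the median gene, where no higher call can be lost, 4 were higher and 0 lower. *Pt-ftz*, a *fushi tarazu* homolog of the Hox complex, had 3.93 molecules per 10000 at stage 7 and 1.14 at late stage 5 (ratio 3.45, 3.33 to 3.58), in 35.2% of stage-7 nuclei against 13.9% of late stage-5 nuclei. *Pt-scr-A*, a *Sex combs reduced* homolog, had 0.350 at stage 7 and 0.0444 at late stage 5 (ratio 7.88, 6.55 to 9.55). *Pt-AbdB-B*, an *Abdominal-B* homolog and thus of the posterior class, had 0.509 at stage 7 and 0.0992 at late stage 5 (ratio 5.13, 4.52 to 5.83). *Pt-pb-A*, a *proboscipedia* homolog, had 0.133 at stage 7 and 0.0425 at late stage 5 (ratio 3.13, 2.57 to 3.84). All 4 of these genes thus had levels at stage 7 above the intervals of late stage 5.

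The anterior Hox gene *Pt-lab-A*, a *labial* homolog, went the other way, with 0.521 at stage 7 and 1.35 at late stage 5 (ratio 0.386, 0.369 to 0.405), a call lost relative to the median gene. Its paralog *Pt-lab-B* was not called, with 0.102 at stage 7 and 0.0791 at late stage 5 (ratio 1.29, 1.10 to 1.51). The paralogs *Pt-scr-A* and *Pt-scr-B* also differed in ratio, *Pt-scr-B* having 0.120 at stage 7 and 0.137 at late stage 5 (ratio 0.879, 0.776 to 0.997, above 1 relative to the median gene). Closely related copies can exchange reads in the counting, so the split between paralogs is uncertain. Hox genes outside the list also differed in direction. *LOC107450665*, with the older name *deformed*, had a ratio of 0.285 (0.243 to 0.333) and stayed lower relative to the median gene (0.434). *LOC107450671*, with the older name *ubx*, had 0.431 (0.305 to 0.608), a call lost relative to the median gene. The *Antennapedia*-type gene *LOC107447498* was higher, with a ratio of 2.62.

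The eighth listed Hox gene, *Pt-antp-A* (*LOC107450669*, an *Antennapedia* homolog), had 568 molecules in 406 stage-7 nuclei and 0 in the late stage-5 library, filtered or not. Against 3 counts, the limit that a count of 0 allows over the late stage-5 library, it was at least 73.8-fold higher at stage 7. The long noncoding RNA *LOC107447501* had 1760 molecules in 530 stage-7 nuclei and 0 at late stage 5, and was at least 229-fold higher. In the RefSeq annotation of assembly CAS_Ptep_4.0, it lies in a stretch of 11 entries that also holds *Pt-scr-B*, *Pt-ftz* and the *Antennapedia*-type gene *LOC107447498*.

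The noncoding neighbors of the Hox genes were therefore looked up by their order in that annotation, a choice made after seeing these values. In the stretch of 11 entries there were 8 long noncoding RNAs, of which *LOC107447508* had 1021 molecules at stage 7 and 67 at late stage 5 (ratio 5.94). *LOC107447506* had 731 at stage 7 and 30 at late stage 5 (ratio 9.50), *LOC107447505* had 479 at stage 7 and 21 at late stage 5 (ratio 8.89), and *LOC122268913* had 993 at stage 7 and 78 at late stage 5 (ratio 4.96). *LOC107447499* had 4763 at stage 7 and 938 at late stage 5 (ratio 1.98). All 8 thus had a higher level at stage 7. Of the coding genes in this stretch, *Pt-ftz* (ratio 3.45) and *LOC107447498* (2.62) were higher as well, while *Pt-scr-B* had a ratio of 0.879. In the stretch around *Pt-scr-A* and *Pt-antp-A*, the long noncoding RNAs *LOC107450662* (1817 molecules at stage 7 and 112 at late stage 5, ratio 6.32) and *LOC122269180* (1050 at stage 7 and 50 at late stage 5, ratio 8.19) were also higher. In the same stretch, *LOC107450670* had 1850 molecules at stage 7 and 473 at late stage 5 (ratio 1.52), and *LOC107450663*, with 2 molecules at stage 7 and 13 at late stage 5 (ratio 0.0600), and *LOC107450675*, with 3 at stage 7 and 2 at late stage 5 (ratio 0.585), were below the minimum of 100 molecules. The sources used here do not state whether counting used strand, so reads of overlapping genes on opposite strands cannot be told apart.

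Of 13 posterior genes, 5 were called higher and 5 lower, with a median ratio of 0.645, near that of all compared genes, and 5 higher and 3 lower relative to the median gene. The genes near 0 in the germ disc were led by *Pt-caudal*, which patterns the growth zone, with 0.646 molecules per 10000 at stage 7 and 0.0246 at late stage 5 (ratio 26.2, 20.6 to 34.0). *Pt-eve* (*even-skipped*) had 0.881 at stage 7 and 0.0545 at late stage 5 (ratio 16.2, 13.7 to 19.2). *Pt-runx-B*, a *runt* homolog, had 0.562 at stage 7 and 0.126 at late stage 5 (ratio 4.47, 4.00 to 5.02), and *Pt-wnt11_2*, a Wnt ligand gene, had 0.556 at stage 7 and 0.201 at late stage 5 (ratio 2.76, 2.52 to 3.03). *Pt-aslH*, an achaete-scute family gene of the posterior end, lay at the threshold with a ratio of 2.03 (1.80 to 2.31).

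Markers of the disc center differed in direction, *Pt-AP2-A* and *Pt-prd2* being lower at stage 7, *Pt-gas1* (described with the Hedgehog genes) higher and *Pt-msx1* (described with the stripe genes) near equal. Among the genes called lower, *Pt-wnt5* had 1.04 at stage 7 and 7.14 at late stage 5 (ratio 0.146, 0.142 to 0.150), in 14.4% of stage-7 nuclei against 34.7% of late stage-5 nuclei. *Pt-AP2-A*, which marks the center of the disc and later the opisthosoma, had 1.44 at stage 7 and 3.88 at late stage 5 (ratio 0.370, 0.360 to 0.381), in 12.8% of stage-7 nuclei against 30.7% of late stage-5 nuclei, and its call was lost relative to the median gene. *Pt-prd2*, a Pax3/7-type gene that marks the center and later stripes, had 0.792 at stage 7 and 2.83 at late stage 5 (ratio 0.280, 0.270 to 0.290). The Wnt ligand gene *Pt-wnt8*, which the posterior region requires, was not called, with 1.60 at stage 7 and 3.07 at late stage 5 (ratio 0.520, 0.505 to 0.535). After thinning it was found in 16.5% of stage-7 nuclei against 21.8% of late stage-5 nuclei, but without thinning in 32.9% at stage 7 against 29.9% at late stage 5.

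**Figure D4:**
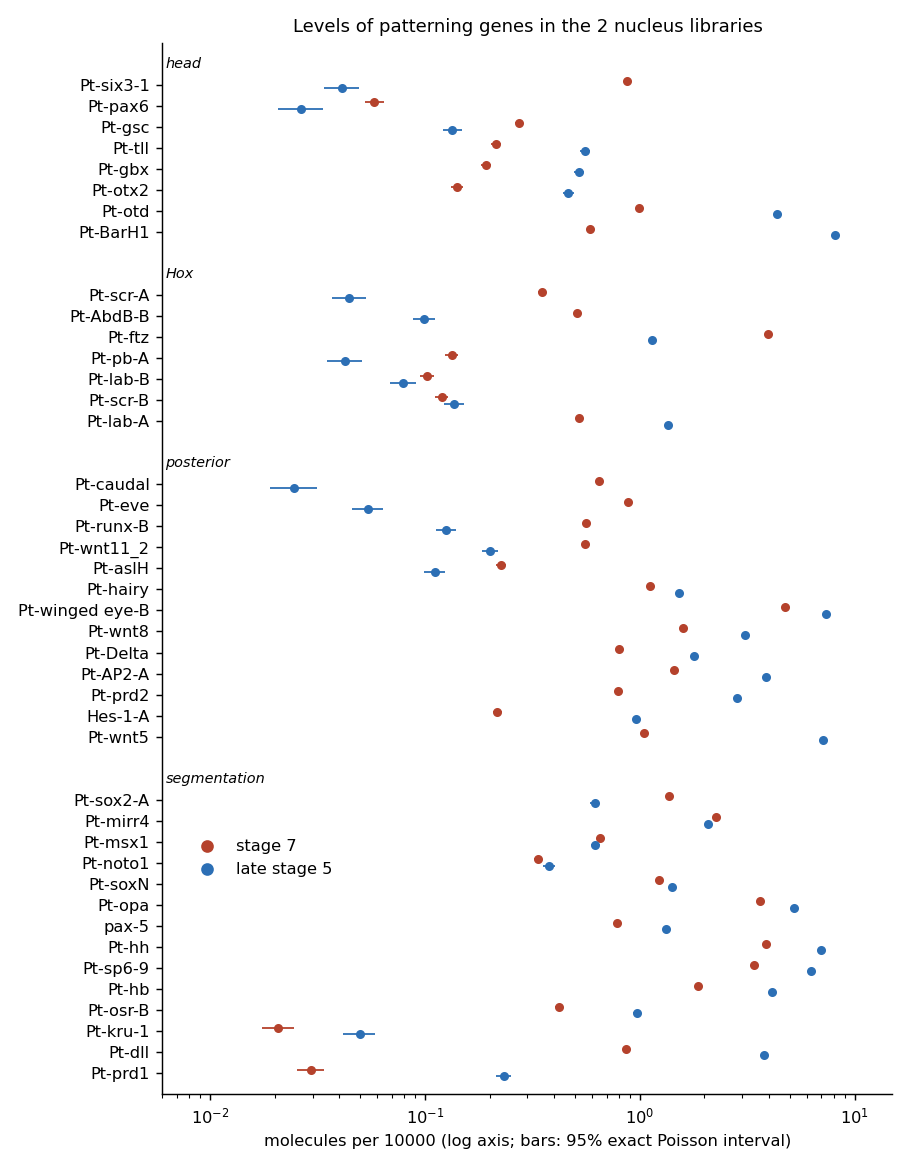
Levels in molecules per 10000 (horizontal axis, log scale) of the compared head, Hox, posterior and segmentation genes in stage-7 nuclei (red) and late stage-5 nuclei (blue), 1 library each, with 95% exact Poisson intervals for counting error. Within each list, genes run from the highest ratio at the top to the lowest at the bottom, and the largest separations are those of *Pt-six3-1*, *Pt-caudal*, *Pt-eve* and *Pt-BarH1*.

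Of 19 segmentation genes, 4 were called higher and 6 lower, with a median ratio of 0.696, close to that of all compared genes. Beside *Pt-eve*, *Pt-runx-B* and *Pt-ftz*, which also stand in other lists, *Pt-sox2-A* was called higher, with 1.36 at stage 7 and 0.616 at late stage 5 (ratio 2.21, 2.10 to 2.33), in 20.9% of stage-7 nuclei against 9.09% of late stage-5 nuclei. The Pax3/7-type gene *Pt-prd1* had the lowest ratio of the list, with 0.0294 at stage 7 and 0.232 at late stage 5 (0.126, 0.107 to 0.148). *Pt-dll*, the *Distal-less* gene of limb and head patterning, had 0.862 at stage 7 and 3.77 at late stage 5 (ratio 0.229, 0.222 to 0.236), in 11.6% of stage-7 nuclei against 29.2% of late stage-5 nuclei. Both *Pt-prd1* and *Pt-dll* stayed below 0.5 relative to the median gene.

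Several stripe genes were near equal in level at both stages. *Pt-msx1* had 0.649 at stage 7 and 0.621 at late stage 5 (ratio 1.05, 0.989 to 1.11), and *Pt-noto1* had 0.336 at stage 7 and 0.379 at late stage 5 (ratio 0.887, 0.823 to 0.956, above 1 relative to the median gene). The odd-paired homolog *Pt-opa*, which acts in head stripe splitting, had 3.65 at stage 7 and 5.24 at late stage 5 (ratio 0.696, 0.682 to 0.711), also above 1 relative to the median gene. The gap gene homolog *Pt-hb* (*hunchback*) was called lower, with 1.88 at stage 7 and 4.14 at late stage 5 (ratio 0.453, 0.442 to 0.465), a call lost relative to the median gene.

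In the Hedgehog pathway, the ligand gene *Pt-hh* was spread over more nuclei with fewer molecules in each. It had 3.88 molecules per 10000 at stage 7 and 7.01 at late stage 5 (ratio 0.553, 0.543 to 0.564). Yet 25.6% of stage-7 nuclei held a molecule, against 21.7% of late stage-5 nuclei, and a positive nucleus held 3.27 thinned molecules on average at stage 7 against 6.60 at late stage 5. The receptor gene *Pt-ptc*, which is also a target of the pathway, was near equal, with 1.73 at stage 7 and 1.82 at late stage 5 (ratio 0.949, 0.917 to 0.981, above 1 relative to the median gene). *Pt-ci*, the transcription factor gene of the pathway, was lower in both level and share, with 2.72 at stage 7 and 6.82 at late stage 5 (ratio 0.399, 0.391 to 0.408) in 37.0% of stage-7 nuclei against 60.5% of late stage-5 nuclei, a level call lost relative to the median gene.

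Extracellular partners of Hedgehog differed in direction. *Pt-gas1*, whose vertebrate homolog binds Hedgehog at the cell surface and which is a marker of the thorax, had 0.649 at stage 7 and 0.322 at late stage 5 (ratio 2.02, 1.87 to 2.17), with an interval that reaches below 2. *Pt-shifted*, whose *Drosophila* homolog helps Hedgehog spread, had 0.605 at stage 7 and 2.03 at late stage 5 (ratio 0.298, 0.286 to 0.310). Of the 5 Hedgehog genes, 1 was thus higher and 2 lower, with a median ratio of 0.553, counts too small to set beside the 9.97% and 30.4% of all compared genes.

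Of 9 genes of Wnt signaling, 4 were called higher and 2 lower, with a median ratio of 0.945. Relative to the median gene, where no higher call can be lost, 4 were higher and 2 lower. Among the ligands, *Pt-wnt16* had 0.189 at stage 7 and 0.0119 at late stage 5 (ratio 15.8, 11.1 to 23.2), in the opposite direction to *Pt-wnt5*, and *Pt-wnt7_1* had 0.124 at stage 7 and 0.132 at late stage 5 (ratio 0.945, 0.834 to 1.07). The receptor gene *Pt-frizzled4* had 0.405 at stage 7 and 0.156 at late stage 5 (ratio 2.60, 2.34 to 2.88), while *Pt-fz* had 0.881 at stage 7 and 1.09 at late stage 5 (ratio 0.811, 0.776 to 0.848, above 1 relative to the median gene). Feedback inhibitors parted. *Pt-Notum*, whose product removes a lipid that Wnt ligands need, had 1.07 at stage 7 and 0.114 at late stage 5 (ratio 9.35, 8.34 to 10.5), whereas *Pt-naked cuticle* had 0.0903 at stage 7 and 0.360 at late stage 5 (ratio 0.251, 0.226 to 0.277).

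Most of the listed genes of Notch signaling were called lower at stage 7. Of 5 genes, 4 were called lower and 0 higher (median ratio 0.281), and 3 of the 5 were lower relative to the median gene. The ligand gene *Pt-Delta* had 0.798 at stage 7 and 1.78 at late stage 5 (ratio 0.449, 0.432 to 0.467), a call lost relative to the median gene, and was found after thinning in 12.7% of stage-7 nuclei against 17.8% of late stage-5 nuclei, but without thinning in 34.0% at stage 7 against 29.5% at late stage 5. *Pt-Delta2* had 0.366 at stage 7 and 1.69 at late stage 5 (ratio 0.217, 0.207 to 0.228). The receptor gene *Pt-Notch* was found in most nuclei of the disc, with 4.86 at stage 7 and 17.3 at late stage 5 (ratio 0.281, 0.277 to 0.285), in 41.9% (40.7 to 43.2) of stage-7 nuclei against 80.6% (79.5 to 81.7) of late stage-5 nuclei. Of the Hes-type genes, a class of Notch targets, *Hes-1-A* had 0.217 at stage 7 and 0.963 at late stage 5 (ratio 0.226, 0.212 to 0.241). *Pt-hairy* was not called (0.734, 0.706 to 0.762) and lay above 1 relative to the median gene.

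Among 6 BMP genes, 1 was called higher and 1 lower, with a median ratio of 0.724. The ligand gene *Pt-dpp* had 3.58 at stage 7 and 6.35 at late stage 5 (ratio 0.564, 0.553 to 0.576). Its secreted antagonist *Pt-sog*, which marks the ventral side, had 5.95 at stage 7 and 4.73 at late stage 5 (ratio 1.26, 1.23 to 1.28), so the ligand and the antagonist moved in opposite directions without reaching 2-fold. *Pt-magu*, which encodes a SPARC-related calcium-binding protein, was the gene called higher, with 7.47 at stage 7 and 1.95 at late stage 5 (ratio 3.84, 3.73 to 3.95), in 52.9% of stage-7 nuclei against 18.1% of late stage-5 nuclei. *Pt-noggin-D* was called lower (0.488, 0.457 to 0.522), with an interval that crosses 0.5 and a call that was lost relative to the median gene.

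Of 6 FGF and EGF pathway genes, 0 were called higher and 4 lower (median ratio 0.426), and 1 was lower relative to the median gene. The ligand gene *Pt-fgf8* had 3.81 at stage 7 and 9.63 at late stage 5 (ratio 0.395, 0.389 to 0.402), a call lost relative to the median gene, while the receptor genes *Pt-FGFRa* (ratio 0.936, 0.900 to 0.974) and *Pt-FGFRb* (0.882, 0.856 to 0.909) were not called and lay above 1 relative to the median gene. *Pt-rhomboid*, whose *Drosophila* homolog releases EGF ligands, had 0.804 at stage 7 and 1.77 at late stage 5 (ratio 0.456, 0.438 to 0.474), a call lost relative to the median gene. Among 8 adhesion and cell surface genes, the heparan sulfate carrier *Pt-glypican6-B* (ratio 0.353, 0.347 to 0.358) and the polarity gene *Pt-stardust1* (0.411, 0.400 to 0.422) were called lower, both lost relative to the median gene, and 0 were called higher. The levels of the catenin gene *Pt-alpha-catenin*, 1.94 at stage 7 and 1.98 at late stage 5, were indistinguishable by counting error (ratio 0.981, 0.950 to 1.01) but lay above 1 relative to the median gene.

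Of 11 markers of germ layers and extraembryonic tissue, 3 were called higher and 4 lower (median ratio 0.585), and 4 higher and 0 lower relative to the median gene. *Pt-twist*, the mesoderm marker, had 0.385 at stage 7 and 0.0787 at late stage 5 (ratio 4.89, 4.25 to 5.65), in 6.36% of stage-7 nuclei against 1.35% of late stage-5 nuclei. The endoderm marker *aug3.g486* was not called on all molecules, with 2.29 at stage 7 and 1.34 at late stage 5 (ratio 1.71, 1.65 to 1.77), but passed 2 relative to the median gene. Another endoderm marker, *LOC107436131*, was not called either, with 0.181 at stage 7 and 0.329 at late stage 5 (ratio 0.550, 0.504 to 0.601). *At_eW_012_A08*, of endoderm and cumulus mesenchyme in the disc and of endoderm and extraembryonic tissue in the germ band, had 2.28 at stage 7 and 3.89 at late stage 5 (ratio 0.585, 0.571 to 0.600). *Pt-ets4*, the marker of the cumulus mesenchyme, had 0.194 at stage 7 and 0.503 at late stage 5 (ratio 0.386, 0.358 to 0.417), a call lost relative to the median gene. The extraembryonic markers *Pt-tlx* (0.129 at stage 7 and 0.0138 at late stage 5, ratio 9.36, 6.74 to 13.4) and *LOC107439300* (0.307 at stage 7 and 0.0474 at late stage 5, ratio 6.48, 5.42 to 7.82) were higher at stage 7. The other listed extraembryonic markers did not rise. *Pt-noggin-D* had 0.296 at stage 7 and 0.605 at late stage 5 (ratio 0.488), a call lost relative to the median gene. *Pt-GATA1* was not called (ratio 0.910, 0.888 to 0.933) and lay above 1 relative to the median gene.

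To look for free RNA from other cells, patterning genes were counted in nuclei with at least 10 molecules of *At_eW_012_A08*. This marker also covers cumulus mesenchyme in the disc and extraembryonic tissue in the germ band. The nuclei chosen by it therefore need not lack these genes, and free RNA cannot be told apart from their own expression. There were 394 such nuclei at stage 7 (median 13832.5 molecules before thinning) and 269 at late stage 5 (7781). *Pt-otd* was found in 1.78% of them at stage 7 and 3.35% at late stage 5, far below its shares of all nuclei. *Pt-ftz* was found in 8.88% of them at stage 7 and 0.372% at late stage 5, and *Pt-caudal* in 1.78% at stage 7 and in 0 of 269 nuclei at late stage 5. Some listed genes were instead found more often in marker-rich nuclei than in all nuclei, and those shares are no measure of background. At late stage 5 these included *Pt-six3-1*, with 4.83% (2.60 to 8.12) of the marker-rich nuclei against 0.602% of all nuclei, whereas at stage 7 the marker-rich nuclei held it in 1.52% (0.561 to 3.28), below the 6.27% of all nuclei. At late stage 5 *Pt-gbx* was found in 12.6% of them against 6.93% of all nuclei, and at stage 7 *Pt-hb* in 35.5% against 25.1% and *Pt-winged eye-B* in 69.0% against 53.1%. *Pt-Delta* was found in 1.78% of marker-rich nuclei at stage 7 and 30.5% at late stage 5, where the study names it as a marker of peripheral endoderm, so that share is no measure of background. *Pt-wnt8* was found in 2.54% of them at stage 7 and 21.6% at late stage 5, against 21.8% of all late stage-5 nuclei.

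By share of nuclei at equal depth, 1157 genes (8.9%) were at least 5 percentage points higher at stage 7 and 1969 (15.2%) at least 5 points lower. The excess variance of many axis genes also differed between stages, shown here for 8 genes chosen after their values were seen. It was larger at stage 7 for *Pt-BarH1* (15.0 at stage 7, 2.73 at late stage 5), *Pt-AP2-A* (9.03 at stage 7, 3.06 at late stage 5), *Pt-otd* (7.51 at stage 7, 4.60 at late stage 5) and *Pt-Notch* (2.34 at stage 7, 0.694 at late stage 5). It was smaller at stage 7 for *Pt-magu* (1.47 at stage 7, 5.87 at late stage 5), *Pt-sox2-A* (1.30 at stage 7, 3.93 at late stage 5), *Pt-ftz* (2.90 at stage 7, 5.55 at late stage 5) and *Pt-hh* (5.12 at stage 7, 8.14 at late stage 5). In each of these genes but *Pt-hh*, the stage with the larger excess variance was the one with the lower level.

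Pairs of markers of axial regions were examined in single nuclei. For each pair, the percentage of nuclei with both genes was divided by the product of the percentages with each. A value of 1 thus stands for independent detection over all nuclei of a library. Nuclei of tissues that lack both genes raise the value, to a degree that may differ between the stages. Independence within the ectoderm alone was not tested. *Pt-hh* and *Pt-AP2-A* mark the rim and the center of the disc at late stage 5. At stage 7 the study describes *Pt-hh* in stripes that reach into the opisthosoma, the region that *Pt-AP2-A* then marks. This pair was found together in 458 of 6239 stage-7 nuclei, 2.24 times the product (2.04 to 2.44), and in 155 of 4820 late stage-5 nuclei, 0.481 times (0.410 to 0.562). *Pt-rhomboid* marks the intermediate zone at late stage 5, and the study's marker list names no region for it at stage 7. *Pt-hh* and *Pt-rhomboid* changed in the same way, with 1.38 (1.23 to 1.55) at stage 7 and 0.371 (0.293 to 0.464) at late stage 5. *Pt-otd* and *Pt-rhomboid* had 1.28 (1.06 to 1.53) at stage 7 and 0.276 (0.212 to 0.353) at late stage 5. These 3 pairs were thus found together more often than independence over all nuclei gives at stage 7, and less often at late stage 5.

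Other pairs kept or lost their association. *Pt-otd* and *Pt-hh* stayed above 1 at both stages, with 1.86 (1.67 to 2.06) at stage 7 and 2.84 (2.65 to 3.04) at late stage 5, while *Pt-otd* and *Pt-AP2-A* stayed below 1, with 0.362 (0.251 to 0.506) at stage 7 and 0.399 (0.337 to 0.469) at late stage 5. *Pt-gas1* and *Pt-AP2-A*, both of the disc center and later of thorax and opisthosoma, had 0.700 (0.528 to 0.910) at stage 7 and 2.13 (1.84 to 2.46) at late stage 5. The intervals take the single-gene percentages as fixed, and nuclei of 1 library are not replicates.

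**Figure D5:**
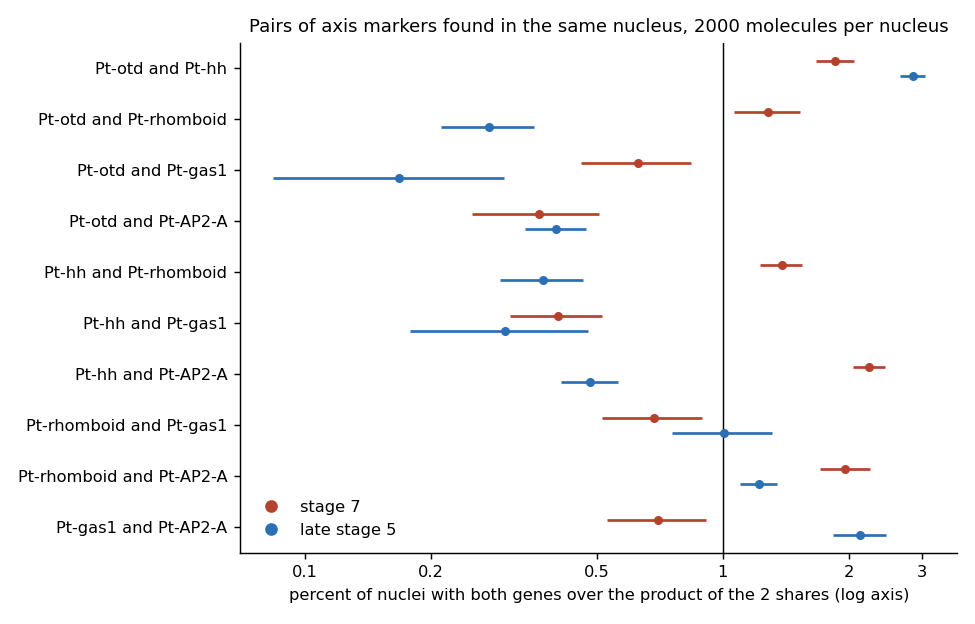
Percentage of nuclei with both genes of a pair over the product of the single percentages (horizontal axis, log scale), after thinning to 2000 molecules, in 6239 stage-7 nuclei (red) and 4820 late stage-5 nuclei (blue), with 95% exact binomial intervals and a line at 1. *Pt-hh* with *Pt-AP2-A*, *Pt-hh* with *Pt-rhomboid* and *Pt-otd* with *Pt-rhomboid* lie above 1 at stage 7 and below 1 at late stage 5, and *Pt-gas1* with *Pt-AP2-A* lies the other way round.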

How the data were processed

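The authors made 3' whole-transcriptome libraries with BD Rhapsody beads, aligned reads to genome assembly Ptep_3.0 and counted molecules per gene and barcode, including exonic and intronic reads for nuclei. The submitters' processing notes name STAR 2.5.2b and Seurat 4.1.1. The deposited counts of the filtered matrices were used as they stand, and equalled those before the filter in all genes. The authors' limits were 2000 genes and 20000 molecules at stage 7, and 1500 genes and 15000 molecules at late stage 5. Doublets were treated only by the upper limit. Authors' log values were not used. 0 columns were left out.

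Counts were summed per library. Genes with at least 100 molecules were compared, and each nucleus was thinned to 2000 molecules (seed 1). Values were computed with Python 3.11.15, numpy 2.4.6, scipy 1.17.1 and pandas 2.3.3, drawn with matplotlib 3.10.9, and the scripts were tested on simulated data. Product names came from the study's supplementary tables (1325 compared genes) and RNA classes and gene order from the RefSeq table of CAS_Ptep_4.0 (11493 compared genes). Genes named were those of the lists, the 12 highest and 12 lowest ratios among genes with at least 1 molecule per 10000, the 8 largest rises and falls in level and in share, and the 3 most abundant of each product list. Hox neighbors and genes at 0 at 1 stage fall outside this rule. Members and lists were chosen with earlier results of these data known. Alternatives changed the scaling, minimum, filter, thinning, seed, fold and the most abundant genes.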

Additional observations from a re-analysis of the deposited data

How the results depend on the processing

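No paired analysis was possible because each stage had 1 library, and for the same reason no library could be left out. Against 1296 genes higher and 3955 lower, scaling by the median gene gave 2447 and 985. Without a minimum, 6851 of 18571 genes were lower, with a minimum of 1000 molecules 1746 of 8313, and with every nucleus thinned 2373 of 10285, where fewer genes could be compared. Calling at 1.5-fold gave 2010 higher and 6626 lower, and at 4-fold 391 and 422. The barcodes before the filter, equal limits for both stages, the mean of per-nucleus levels and the total without its 20 most abundant genes kept both counts within 1.5 times. Of 176 named genes with a call, 145 kept it relative to the median gene and between 166 and 173 with the other barcodes, thinning or means, and without the 20 most abundant genes 163 of 164 kept it. Relative to the median gene only lower calls can be lost.

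By share of nuclei, 1157 genes were at least 5 points higher and 1969 lower. Without thinning these counts were 4957 and 543, and at 4000 molecules, which left out 899 late stage-5 nuclei (18.7%), 1672 and 2994. Without thinning, the difference turned positive for 20 named genes, by 3.01 points for *Pt-wnt8*, 4.55 for *Pt-Delta*, 4.63 for *Pt-winged eye-B*, 4.54 for *Pt-sp6-9*, 3.43 for *Pt-hb*, 1.99 for *pax-5*, 3.15 for *Pt-dpp*, 2.45 for *Pt-BAMBI1*, 4.85 for *Pt-rhomboid*, 4.53 for *Pt-laminin-alpha-1*, 1.19 for *Pt-eph* and 5.29 for *Pt-cyclinD-1*. It was 1.73 points for *LOC107450889*, 6.67 for *LOC107439669*, 7.83 for *LOC107448491*, 5.59 for *LOC107438376*, 6.11 for *LOC107441203*, 1.75 for *LOC107442193*, 0.853 for *LOC107447205* and 1.20 for *LOC107439560*. Unthinned shares follow the higher molecule count of stage-7 nuclei.

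Before the filter, late stage-5 nuclei had medians of 5278 molecules and 2527 genes. With the same limits for both stages, the medians were 9339 molecules and 3269.5 genes at stage 7, and 5739 and 2666 at late stage 5. The depth of late stage-5 nuclei limits low genes most, and differences between the stages may be differences between these 2 libraries.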
